A study of Mus musculus with 9 samples.

Results

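Stmn4, Adgrg1, Ndrg4, Cacng7, Csnk1g1, Sae1 and Adh1 are 7 genes whose mRNA level set the Cry2 knockdown apart from the other cultures of a C2C12 differentiation series. They were selected on measured values, because they differed in the Cry2 knockdown against the control or against the Cry1 knockdown, so their differences in those comparisons are given as a description with no test. They are 7 of the 47728 genes in the count files and 7 of the 13094 genes tested. C2C12 cells are mouse myoblasts of an established line, which fuse to myotubes after a change of serum. The control, the Cry1 knockdown and the Cry2 knockdown were each grown in 10% fetal bovine serum, moved at day 0 to 5% horse serum with 1% insulin, transferrin and selenium, and collected at days 0, 3 and 5. PolyA RNA of the 9 combinations of genotype and day was sequenced, with 1 library for each. The labels do not say how the knockdowns were made, what the control received, or whether a knockdown is a clone or a pool.

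Cryptochromes are repressor proteins of the circadian clock: CRY1 and CRY2 block the activator pair CLOCK and BMAL1, which binds the E-box in the promoters of clock-controlled genes. The 7 genes belong to families with separate roles. Stathmins bind tubulin and destabilise microtubules, ADGRG1 is an adhesion receptor that signals through G12 and G13 proteins to RhoA and is known in muscle for a part in myoblast fusion and growth, and NDRG4 is a cytoplasmic protein best known from heart and brain. CACNG7 is an auxiliary subunit of calcium channels and glutamate receptors, CSNK1G1 is a membrane-bound casein kinase 1, SAE1 is a subunit of the enzyme that activates SUMO, and ADH1 oxidises ethanol and retinol.

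RefSeq promoter windows on GRCm38.p6, from 250 bases before to 50 bases after an annotated start site, were matched for 5 of the 7 genes. The 9 windows belong to Adgrg1, Ndrg4, Cacng7, Csnk1g1 and Adh1, and Stmn4 and Sae1 had no match. The canonical E-box CACGTG, which reads alike on both strands, lay in 2 of these 9 windows, which belong to 2 genes, beside 7.17% of 32544 mouse promoter windows. In Adh1 its first base lay 4 bases after the first transcribed base, and in one of 4 Ndrg4 windows it lay 38 bases before it. The 2 stretches are shown because they hold the letters that the cryptochrome partners are known to bind. They run from 100 bases before the start site to 30 bases from it onward, on the plus strand at chr3:138277485-138277614 and chr8:95677663-95677792, with the E-box in capitals.
Adh1: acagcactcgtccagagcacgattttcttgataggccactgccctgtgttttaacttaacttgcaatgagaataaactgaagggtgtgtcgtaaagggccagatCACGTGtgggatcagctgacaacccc
Ndrg4: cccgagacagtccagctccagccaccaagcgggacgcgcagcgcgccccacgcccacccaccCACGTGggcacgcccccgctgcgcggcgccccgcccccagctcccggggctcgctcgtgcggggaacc
A match is only a description of these letters. The windows were also searched on both strands for CACGTT, found in none of the 9 and in 4.71% of all windows, and for TTATGTAA, a D-box, found in none and in 0.931% of all. The E-box CAGCTG, a form bound by myogenic factors, occurred in 1 of the 9, that of Adh1, in 2 copies, and in 16.4% of all windows.

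Library totals ran from 4731020 counts in the Cry2 knockdown at day 3 to 6412279 in the control at day 0. Levels are in CPM, the counts divided by the library total after scaling by TMM (trimmed mean of M-values). Where a gene has 0 counts its true level may reach 3 counts, which is 0.439 to 0.634 CPM depending on the library. No genotype and day has a replicate, so an SD over a genotype is a spread over its 3 days, the interval around a ratio of 2 libraries covers counting error only, and a difference between cultures that all days of a genotype share cannot be told apart from the knockdown. Cry2 itself was at 19.2, 39.6 and 48.8 CPM for control cells at days 0, 3 and 5, at 28.7, 37.0 and 67.8 CPM for Cry1-knockdown cells, and at 7.25, 8.24 and 16.6 CPM for Cry2-knockdown cells. At each day its level was lowest in the library labelled Cry2 knockdown. The myoblast markers Myod1, Myf5, Pax7, Des and Cdh15 were detected in every library, with a summed level of 2209 to 4853 CPM, mostly Des. The 5 myotube markers went from a sum of 178 to 797 CPM at day 0 to 15498 to 16658 CPM at day 5. Of the other cell types, Rbfox3 (neurons), Sox10 (Schwann cells), Adipoq (adipocytes), Adgre1 (macrophages) and Thy1 (fibroblasts) were at 0 counts in all 9 libraries, but other markers on the same lists were detected. The summed level was 49.3 to 576 CPM for the neuron list, mostly Tubb3, Nefl and Nefm, and 528 to 5729 CPM for the fibroblast list, mostly Col1a1 and Dcn. It was 8.66 to 36.1 CPM for the adipocyte list, mostly Pparg and Cebpa, and at most 4.05, 3.02 and 2.03 CPM for the glia, endothelial and blood lists.

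**Figure D1:**
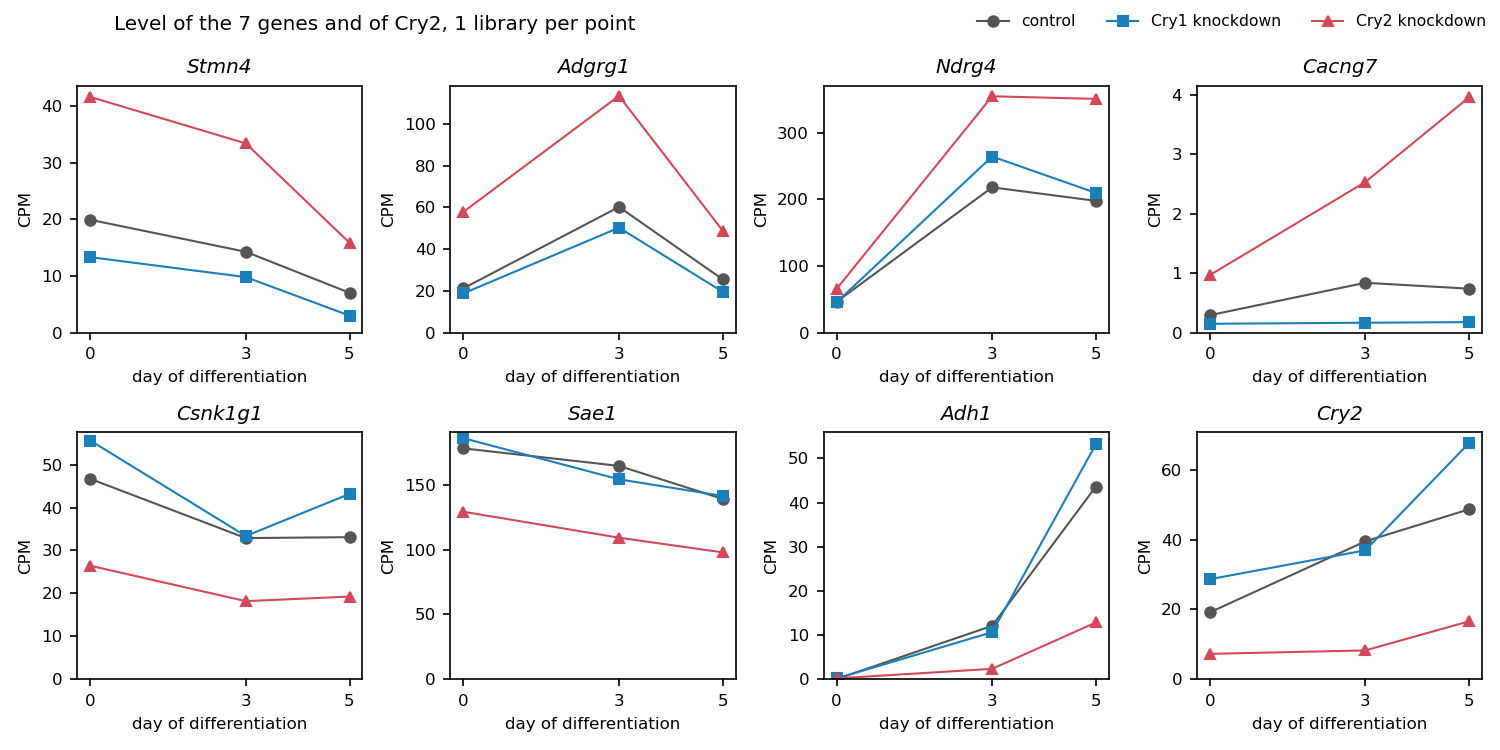
Level of the 7 genes and of Cry2 in CPM (vertical axes, linear) by day of differentiation (horizontal axes) in the control, the Cry1 knockdown and the Cry2 knockdown. Each point is 1 library and there are no error bars; the Cry2 knockdown is the highest line for Stmn4, Adgrg1, Ndrg4 and Cacng7 and the lowest for Csnk1g1 and Sae1 at each day, and for Adh1 at days 3 and 5.

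In the Cry2 knockdown 4 of the 7 genes were higher than in both other genotypes at each day and 2, Csnk1g1 and Sae1, were lower at each day. Adh1 was lower at days 3 and 5 and at or near 0 counts at day 0. Fitted over the 3 days, 6 of the 7 genes were past an adjusted p of 0.05 in edgeR's quasi-likelihood test against the control, where 0.084% of all genes were called, and Cacng7 was not. All 7 were past it against the Cry1 knockdown, where 7.93% of all genes were called, 4.24% higher and 3.69% lower. The genes were chosen for these calls, so the counts carry no weight of their own. The same holds for the counts of genes higher or lower at each day. It also holds for any separation of the Cry2 knockdown from the other libraries described below. The share of all genes with such an order is not given here.

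Stmn4 (ENSMUSG00000022044, chromosome 14, 66344296 to 66361680, plus strand, mm10) encodes a stathmin that is best known from neurons. Its level was 19.9, 14.3 and 7.02 CPM for control cells at days 0, 3 and 5, 13.3, 9.79 and 3.00 CPM for Cry1-knockdown cells, and 41.6, 33.4 and 15.8 CPM for Cry2-knockdown cells. The Cry2 knockdown was the highest library at each day and the Cry1 knockdown the lowest, and the ranges overlap because all 3 genotypes declined: the Cry2 knockdown at day 5 lay below the control at day 0. Within a day the Cry2 knockdown was 2.09-fold (95% counting interval 1.69 to 2.59), 2.34-fold (1.79 to 3.08) and 2.26-fold (1.52 to 3.40) the control. Of the 4 genes that were higher, its ratio to the control varied least between days, with an SD of 0.08 on the log2 scale (n = 3 days). The ratio to the Cry1 knockdown went from 3.12 at day 0 and 3.41 at day 3 to 5.29 (3.12 to 9.51) at day 5, where the Cry1 knockdown had 17 counts. Over the 3 days the log2 difference was 1.15 ± 0.14 (SE) from the control and 1.84 ± 0.15 from the Cry1 knockdown, and the Cry1 knockdown differed from the control by -0.68 ± 0.16.

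Adgrg1 (ENSMUSG00000031785, chromosome 8, 94974751 to 95014217, plus strand), the adhesion receptor also known as GPR56, had its highest level at day 3 in every genotype. It was at 21.2, 60.2 and 25.5 CPM for control cells, 18.8, 50.3 and 19.6 CPM for Cry1-knockdown cells, and 57.9, 113 and 48.9 CPM for Cry2-knockdown cells. In the Cry2 knockdown the level at day 0, before the serum change, was close to the peak of the control at day 3. The ratio to the control was 2.73 (2.24 to 3.33) at day 0, 1.88 (1.65 to 2.16) at day 3 and 1.92 (1.55 to 2.37) at day 5. The intervals cover counting error only, so a difference in ratio between days cannot be tested with them. Against the Cry1 knockdown the ratios were 3.08, 2.26 and 2.50. The fitted log2 difference was 1.10 ± 0.12 (SE) from the control and 1.37 ± 0.12 from the Cry1 knockdown. The Cry1 knockdown lay -0.27 ± 0.12 from the control.

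Ndrg4 (ENSMUSG00000036564, chromosome 8, 95676980 to 95715119, plus strand) was, per length, the most abundant of the 4 genes that were higher. Its level was 46.2, 218 and 198 CPM for control cells, 45.6, 264 and 210 CPM for Cry1-knockdown cells, and 65.6, 355 and 351 CPM for Cry2-knockdown cells. All genotypes rose steeply between days 0 and 3, so the ranges over all days overlap, yet within each day the Cry2 knockdown was the highest. The ratio to the control was 1.42 (1.22 to 1.65), 1.63 (1.51 to 1.75) and 1.77 (1.64 to 1.91) at days 0, 3 and 5. At day 3 the Cry1 knockdown was also above the control, and the ratio of the Cry2 to the Cry1 knockdown was 1.34 (1.25 to 1.44). The fitted log2 differences were 0.69 ± 0.09 (SE) from the control, 0.57 ± 0.09 from the Cry1 knockdown and 0.12 ± 0.09 between the Cry1 knockdown and the control.

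Cacng7 (ENSMUSG00000069806, chromosome 7, 3332955 to 3368221, plus strand), a transmembrane AMPA receptor regulatory protein gene, rests on few counts. At days 0, 3 and 5 control cells had 2, 5 and 4 counts of it, Cry1-knockdown cells 1, 1 and 1, and Cry2-knockdown cells 6, 12 and 21. In CPM these are 0.293, 0.839 and 0.739, then 0.148, 0.166 and 0.176, then 0.967, 2.54 and 3.96. All 3 libraries of the Cry2 knockdown lay above the other 6, but the counting intervals are wide. The ratio to the control was 3.30 (0.591 to 33.5) at day 0, 3.02 (0.991 to 10.95) at day 3 and 5.36 (1.81 to 21.5) at day 5. These intervals cover counting error only and are no test of a difference. Summed over days, 39 counts against 11 give a ratio of 3.98 (1.997 to 8.61) to the control, and 39 against 3 give 14.8 (4.70 to 74.8) to the Cry1 knockdown. The gene reached 10 counts only in the Cry2 knockdown at days 3 and 5, so it could pass the filter on low counts only through the group in which it was high. The fitted log2 differences of 1.92 ± 0.42 (SE) and 3.70 ± 0.53 from the control and the Cry1 knockdown lean on that low base.

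Csnk1g1 (ENSMUSG00000032384, chromosome 9, 65908924 to 66045015, plus strand) encodes casein kinase 1 gamma 1. Its level was 46.7, 32.9 and 33.1 CPM for control cells, 55.6, 33.4 and 43.2 CPM for Cry1-knockdown cells, and 26.4, 18.2 and 19.2 CPM for Cry2-knockdown cells. Each library of the Cry2 knockdown lay below all 6 others. The ratio to the control was 0.566 (0.466 to 0.686), 0.553 (0.424 to 0.716) and 0.582 (0.451 to 0.746) at days 0, 3 and 5, an SD of 0.04 on the log2 scale, the smallest of the 7 genes. Against the Cry1 knockdown the ratios were 0.475, 0.545 and 0.446, and the fitted log2 differences were -0.82 ± 0.10 (SE) from the control, -1.04 ± 0.10 from the Cry1 knockdown and 0.22 ± 0.10 between the Cry1 knockdown and the control.

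Sae1 (ENSMUSG00000052833, chromosome 7, 16320234 to 16387806, minus strand) had the smallest difference and the closest agreement between the 2 comparisons. Its level was 178, 165 and 139 CPM for control cells, 186, 154 and 141 CPM for Cry1-knockdown cells, and 129, 109 and 97.9 CPM for Cry2-knockdown cells. The highest library of the Cry2 knockdown, 129 CPM at day 0, lay below the lowest of the other 6, so the groups do not overlap. The ratio to the control was 0.725 (0.663 to 0.793), 0.663 (0.595 to 0.738) and 0.703 (0.628 to 0.788), and the ratio to the Cry1 knockdown 0.695, 0.708 and 0.692. The fitted log2 differences were -0.52 ± 0.07 (SE) from either group, while the Cry1 knockdown lay -0.0023 ± 0.07 from the control.

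Adh1 (ENSMUSG00000074207, chromosome 3, 138260991 to 138290698, plus strand) is a class I alcohol dehydrogenase gene that came on during differentiation. At days 0, 3 and 5 its counts were 0, 72 and 236 for control cells, 1, 64 and 302 for Cry1-knockdown cells, and 1, 11 and 68 for Cry2-knockdown cells. Its level at days 3 and 5 was 12.1 and 43.6 CPM for control cells, 10.6 and 53.2 CPM for Cry1-knockdown cells, and 2.32 and 12.8 CPM for Cry2-knockdown cells. The Cry2 knockdown at day 5 was thus level with the other genotypes at day 3. At day 0 all 3 libraries were under the limit of 3 counts and no ratio is given. The ratio to the control was 0.192 (0.0920 to 0.365) at day 3 and 0.294 (0.221 to 0.387) at day 5, and to the Cry1 knockdown 0.219 and 0.241. The fitted log2 differences were -1.91 ± 0.25 (SE) and -2.03 ± 0.25 from the control and the Cry1 knockdown, and 0.11 ± 0.21 between those 2. Of its exonic bases 6.09% overlap the antisense gene Gm16559, which had 0 counts in every library, and the TruSeq RNA v2 kit does not keep strand. The other 6 genes overlap no annotated exon of another gene, and none of their 50-base words occurs in another gene's longest transcript.

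**Figure D2:**
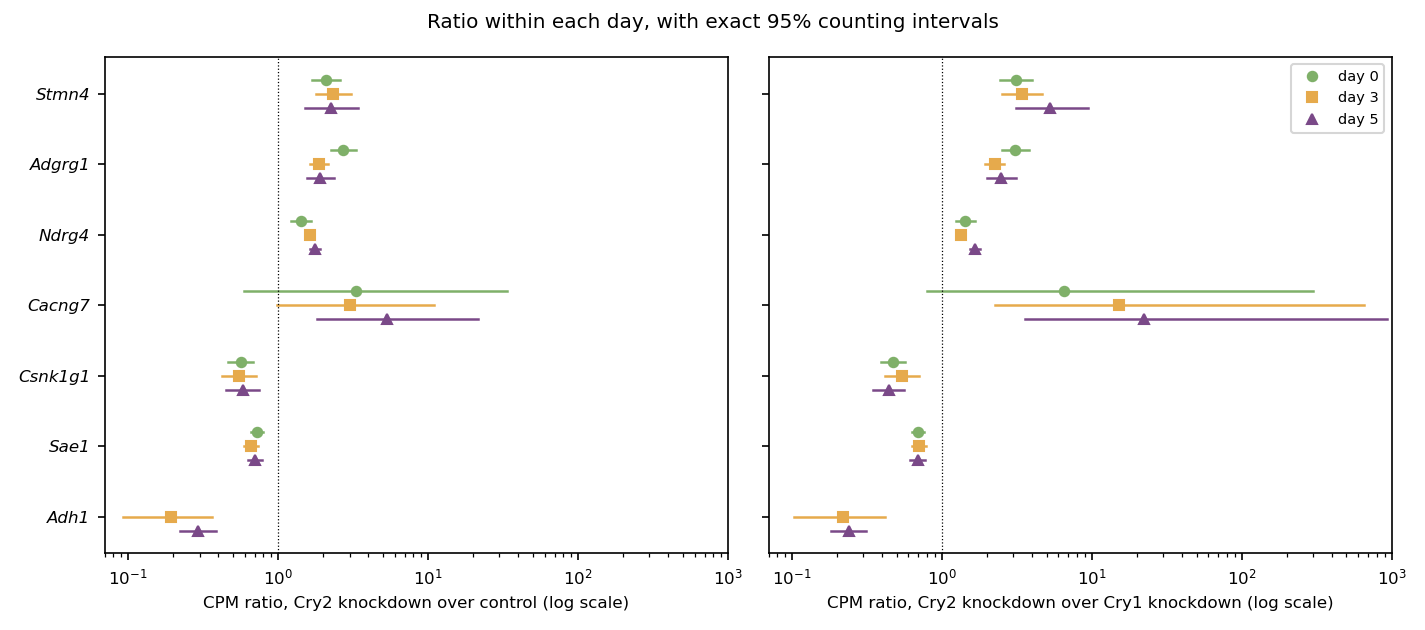
Ratio of CPM for Cry2-knockdown cells to the control (left) and to the Cry1 knockdown (right) on a log axis, for each of the 7 genes at days 0, 3 and 5. Points are ratios of 2 libraries and bars exact 95% counting intervals; against the control Sae1 and Csnk1g1 keep nearly the same ratio over the days, the bars of Cacng7 are the widest, and Adh1 has no point at day 0.

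Per kilobase of annotated exon, a scale on which genes can be compared, the mean level over the 9 libraries was highest for Sae1 at 55.6 ± 11.4 (SD, n = 9 libraries) CPM per kb, at percentile 93.0 of the genes tested. Ndrg4 followed at 39.8 ± 24.7 CPM per kb, which does not differ from Sae1 beyond its spread. Stmn4 at 9.17 ± 6.52, Adgrg1 at 8.52 ± 5.61 and Adh1 at 6.72 ± 8.87 CPM per kb lay within each other's spread near the middle of the tested genes. Csnk1g1 at 2.20 ± 0.80 and Cacng7 at 0.447 ± 0.537 CPM per kb were the lowest, at percentiles 22.7 and 4.53. The exons of Csnk1g1 add up to 15.6 kb over 17 annotated transcripts, which lowers its value per kb where a cell uses a short one.

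The course over differentiation was not used to choose the genes and was tested in the same fit, with day as a term and the change taken to be shared by the genotypes. Genes chosen for calls between genotypes have a small residual spread, which enters this test too. Between days 0 and 3, 6 of the 7 genes were past the threshold, where 51.1% of all genes were called, 25.4% higher and 25.7% lower. Between days 3 and 5 the count was 3 of 7, where 27.9% were called, 14.7% higher and 13.2% lower. With 7 genes, neither count is read as particular to them.

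Ndrg4, Adgrg1 and Adh1 rose by day 3. Ndrg4 rose by 2.40 ± 0.10 (SE) on the log2 scale (edgeR adjusted p = 6.4e-07) and then stayed near its level, with a log2 difference of -0.16 ± 0.09 from day 3 to day 5 (edgeR adjusted p = 0.203). Adgrg1 rose by 1.27 ± 0.12 (edgeR adjusted p = 3.2e-05) and fell again by 1.27 ± 0.12 by day 5 (edgeR adjusted p = 0.00056). Its rise to day 3, in log2 CPM after adding 1 count, was 1.499 in the control, 1.41 in the Cry1 knockdown and 0.97 in the Cry2 knockdown. This difference cannot be tested with 1 library per point. Adh1 rose at both steps, by a fitted 6.11 ± 0.46 to day 3 (edgeR adjusted p = 1.0e-05), a value that depends on the prior count because day 0 was at the limit, and by 2.14 ± 0.20 from day 3 to day 5 (edgeR adjusted p = 0.00056). Raw counts of Adh1 rose from 72 to 236, from 64 to 302 and from 11 to 68 over that second step.

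Stmn4, Csnk1g1 and Sae1 fell by day 3. Csnk1g1 fell by 0.60 ± 0.10 (SE) on the log2 scale (edgeR adjusted p = 0.0010) with no further call, its change from day 3 to day 5 being 0.16 ± 0.10 (edgeR adjusted p = 0.267). Stmn4 fell by 0.41 ± 0.14 (edgeR adjusted p = 0.036) and then by 1.18 ± 0.16 (edgeR adjusted p = 0.0015). Sae1 fell by 0.21 ± 0.07 (edgeR adjusted p = 0.032), and its change to day 5 was -0.18 ± 0.07 (edgeR adjusted p = 0.094). The first step of Stmn4 and of Sae1 was lost with DESeq2 (adjusted p = 0.162 and 0.167) and without 1 library in 5 of 9 and 6 of 9 cases, up to adjusted p of 0.133 and 0.143. That of Sae1 was also lost with no filter on low counts (edgeR adjusted p = 0.083) and with only the 6 libraries compared (edgeR adjusted p = 0.109). Cacng7 passed at neither step (log2 1.28 ± 0.51, edgeR adjusted p = 0.063, then 0.37 ± 0.43, edgeR adjusted p = 0.558). Csnk1g1 and Sae1, lower at every day in the Cry2 knockdown, were below their day 0 level at days 3 and 5 in each genotype. The call for the first step of Sae1 was lost in the settings named above. Of the genes that were higher, Stmn4 declined, Adgrg1 peaked at day 3, Ndrg4 rose to a plateau and Cacng7 had no call.

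Relatives and partners of the 7 genes were followed in 8 lists that hold 115 genes, of which 84 were tested. Against the control 0 of the 84 passed in edgeR, with 21 at an unadjusted p under 0.05 (beside 12.2% of all genes) and 3 called by DESeq2 (Tubb3, Tgm2 and Stmn2). Against the Cry1 knockdown 14 of 84 passed, or 16.7% beside 7.93% of all genes, 8 higher and 6 lower. That count went from 4 to 16 when 1 library was left out. It was 4 without the Cry1 knockdown at day 3 and without the Cry2 knockdown at day 3 or 5. It was 6 and 7 without the Cry1 knockdown at days 5 and 0, and 8 without the Cry2 knockdown at day 0. The calls of Stmn2, Tgm2 and Per2 held whichever library was left out, and the other 11 were each lost without the Cry2 knockdown at day 3, among other libraries. DESeq2 called 10 of the 14, without Mapt, Dcx, Ndrg3 and Per1. Of the 14, Dcx could pass the filter on low counts only through the Cry1 knockdown, in which it was high. With a filter of 1 CPM in 3 libraries, 13 of 83 passed in edgeR.

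Among stathmins and other microtubule genes, 4 of 14 passed against the Cry1 knockdown, 2 in each direction, and the list's median log2 difference from the control was 0.10 beside -0.00072 over all genes. Stmn2, another stathmin known from neurons, moved the opposite way to Stmn4. Stmn2 was at 106, 82.9 and 39.4 CPM for control cells at days 0, 3 and 5, 122, 135 and 60.1 CPM for Cry1-knockdown cells and 73.3, 42.0 and 21.3 CPM for Cry2-knockdown cells, the lowest library at each day. It fell by 1.28 ± 0.16 (SE) on the log2 scale against the Cry1 knockdown (edgeR adjusted p = 0.0035), and its difference from the control was -0.77 ± 0.16 (edgeR adjusted p = 0.150, DESeq2 adjusted p = 0.0094). Tubb3, a beta-tubulin, was higher by 0.86 ± 0.15 against the Cry1 knockdown (edgeR adjusted p = 0.014), as was Mapt, the microtubule-binding protein tau, by 0.74 ± 0.17 (edgeR adjusted p = 0.032). Dcx, doublecortin, was lower by 4.28 ± 0.80 at a mean of 0.70 CPM. It was above 1 CPM only in the Cry1 knockdown, at 2.49 and 2.29 CPM at days 3 and 5. It could thus pass the filter on low counts only through the group in which it was high, so its call carries no weight. With a filter of 1 CPM in 3 libraries, 3 of 13 genes of this list passed against the Cry1 knockdown.

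Tubb3 also belongs to the neuron markers. The 6 neuron markers summed to 444, 226 and 49.3 CPM for control cells, 399, 176 and 68.5 CPM for Cry1-knockdown cells and 576, 327 and 105 CPM for Cry2-knockdown cells. Tubb3, Nefl and Nefm made up nearly all of these sums, since Rbfox3 was at 0 counts, Snap25 at 1 count and Syt1 at 7 counts over all libraries. Tubb3 alone was at 324, 318 and 99.6 CPM for Cry2-knockdown cells against 224, 195 and 42.5 CPM for control cells. Nefm was lower in the Cry2 knockdown than in the control at each day (81.4 and 82.8, 2.54 and 9.56, 2.07 and 3.70 CPM). Nefl was higher at day 0 (170 and 136 CPM) and lower at days 3 and 5 (6.34 and 21.0, 2.45 and 3.14 CPM), so among these 3 markers Tubb3 alone was higher at each day, as Stmn4 was. The part of these markers in the Stmn4 result was not tested.

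For Adgrg1 the list of ligands and partners had 2 of 9 genes past the threshold against the Cry1 knockdown, and both rose. Tgm2, transglutaminase 2, a protein known to bind the extracellular part of ADGRG1, was at 23.3, 113 and 112 CPM for control cells, 15.2, 59.1 and 96.9 CPM for Cry1-knockdown cells and 45.6, 164 and 202 CPM for Cry2-knockdown cells. It was highest in the Cry2 knockdown at each day, by 1.34 ± 0.14 (SE) on the log2 scale over the Cry1 knockdown (edgeR adjusted p = 0.0017, called also without any 1 library), and its difference from the control was 0.77 ± 0.13 (edgeR adjusted p = 0.093, DESeq2 adjusted p = 0.0011). Cd81, a tetraspanin that associates with ADGRG1, rose by 0.43 ± 0.09 against the Cry1 knockdown (edgeR adjusted p = 0.024). Col3a1, the collagen III ligand of ADGRG1 in brain, lay -0.51 ± 0.16 from the control (edgeR adjusted p = 0.253), and Rhoa at 0.01 ± 0.08. Of the other adhesion receptors, 10 of 26 had counts enough for a test and 2 passed against the Cry1 knockdown. These were Adgra2, higher by 0.48 (edgeR adjusted p = 0.045), and Adgrl3, lower by 0.52 (edgeR adjusted p = 0.027). From the control Adgra2 lay only 0.05 ± 0.12 (edgeR adjusted p = 0.901) and Adgrl3 -0.51 ± 0.11 (edgeR adjusted p = 0.164). The list's median log2 difference from the control was -0.30, the most negative of the 8 lists, beside 1.10 for Adgrg1.

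The 3 other NDRG genes lay between 0.08 and 0.14 log2 from the control, none past the threshold, and Ndrg3 rose by 0.31 against the Cry1 knockdown (edgeR adjusted p = 0.041, DESeq2 adjusted p = 0.2502). The list around Cacng7 had 0 of 7 tested genes past the threshold in either comparison. Cacng1, the gamma subunit of the skeletal muscle calcium channel, was at 65.3, 209 and 336 CPM for Cry2-knockdown cells and 70.5, 269 and 361 CPM for control cells, a log2 difference of -0.20 ± 0.09 (edgeR adjusted p = 0.406).

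None of the other casein kinase 1 genes on the list passed the threshold in either comparison. Csnk1a1, Csnk1d, Csnk1e, Csnk1g2 and Csnk1g3 lay between 0.02 and 0.10 log2 from the control. Csnk1g3, another gamma isoform, was at 48.4, 42.8 and 41.8 CPM for control cells and 56.2, 37.8 and 46.2 CPM for Cry2-knockdown cells, which overlap. Of the casein kinase 1 substrates on the list, Per2 was lower than in the Cry1 knockdown by 1.25 ± 0.17 (edgeR adjusted p = 0.0053) and Per1 by 0.50 ± 0.10 (edgeR adjusted p = 0.021, DESeq2 adjusted p = 0.075). Per2 was at 11.6, 10.1 and 19.8 CPM for Cry2-knockdown cells, 7.76, 10.2 and 19.2 CPM for control cells and 29.4, 28.9 and 37.9 CPM for Cry1-knockdown cells, so it was the Cry1 knockdown that stood apart.

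In the SUMO pathway 0 of 16 tested genes passed in either comparison, with a median log2 difference of 0.02 from the control. Uba2, the other subunit of the enzyme that SAE1 forms, was at 134, 109 and 72.6 CPM for Cry2-knockdown cells and 140, 103 and 71.5 CPM for control cells. The genotypes overlap for Uba2, unlike for Sae1. Among 15 tested genes of alcohol and retinoid metabolism, 0 passed against the control and 3 against the Cry1 knockdown. These were Stra6, a retinol-binding protein receptor, higher by 3.08 (edgeR adjusted p = 0.022), Aldh2, an aldehyde dehydrogenase, higher by 0.36 (edgeR adjusted p = 0.030), and Rara, a retinoic acid receptor, lower by 0.58 (edgeR adjusted p = 0.026). Stra6 was at 13.5 CPM for Cry2-knockdown cells, 11.6 CPM for control cells and 1.18 CPM for Cry1-knockdown cells at day 0 and under 1 CPM later. Adh5, another alcohol dehydrogenase gene, lay 0.11 ± 0.08 from the control (edgeR adjusted p = 0.631).

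Like Adh1 at days 3 and 5, the summed fibroblast markers were lowest in the Cry2 knockdown. Their sum, with 3 of 4 markers detected, was 528, 1866 and 3280 CPM for Cry2-knockdown cells, 987, 2610 and 3925 CPM for control cells and 1658, 3618 and 5729 CPM for Cry1-knockdown cells. Col1a1 made up most of it and, like Pdgfra, was lowest in the Cry2 knockdown at each day. Dcn was not lowest there at any day. It was at 28.2, 494 and 703 CPM for Cry2-knockdown cells, 20.0, 433 and 812 CPM for control cells and 9.32, 164 and 320 CPM for Cry1-knockdown cells. The part of these markers in the Adh1 result was not tested, and in bulk RNA fewer cells of a type and less RNA per cell cannot be told apart.

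**Figure D3:**
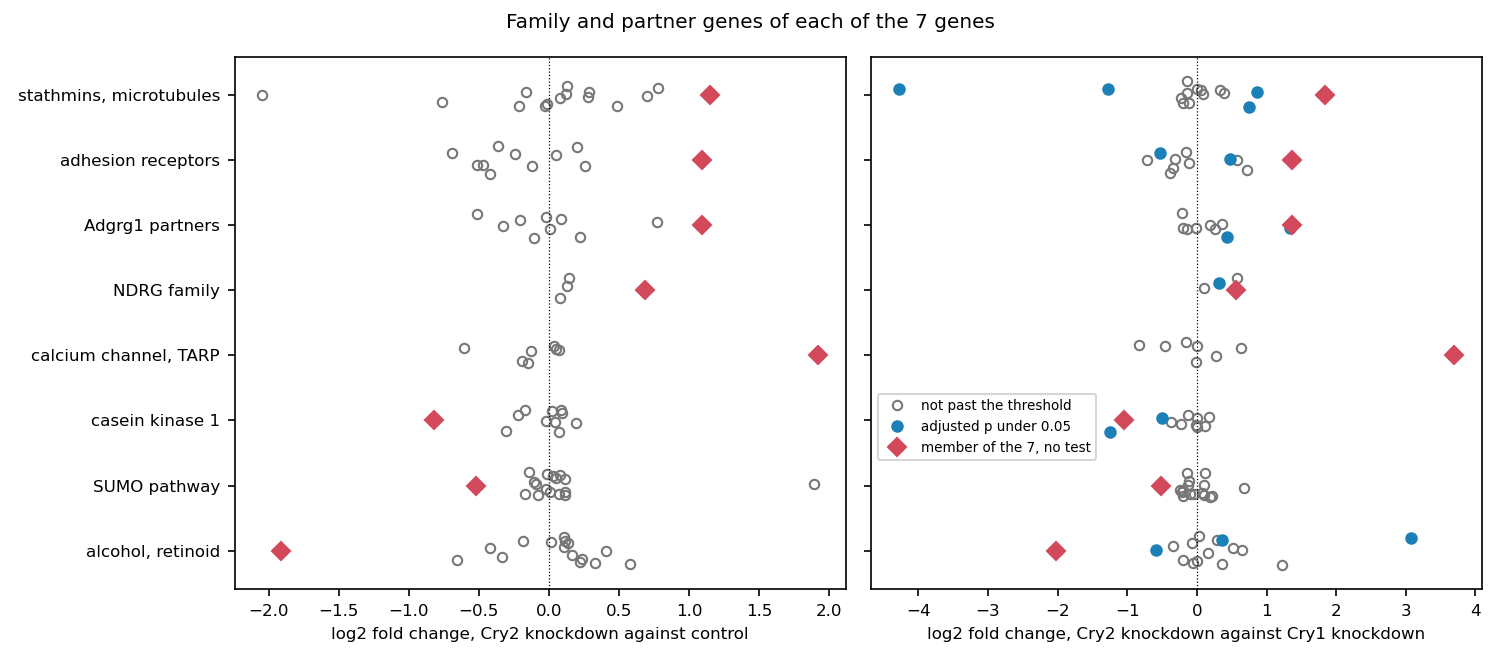
Log2 fold change of the Cry2 knockdown against the control (left) and the Cry1 knockdown (right), from a fit over 9 libraries, for the tested genes of 8 family and partner lists (circles, filled where the adjusted p is under 0.05) and the gene each list belongs to (diamonds, no test). No circle is filled on the left and 14 are on the right; the isolated open circle of the SUMO list at 1.89 is Sumo2 (adjusted p = 0.36), named after its value was seen.

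Adgrg1 and Ndrg4 lie 663 kb apart on chromosome 8 in the same orientation. Of 11 tested genes between them, 0 passed against the control, 0 at an unadjusted p under 0.05 in edgeR and 0 in DESeq2, and 0 passed against the Cry1 knockdown, where 3 had an unadjusted p under 0.05, beside 25.8% of all genes. Their log2 differences from the control ran from -0.15 (Csnk2a2) to 0.70 (Cngb1, 0.70 ± 0.36, edgeR adjusted p = 0.475), with a median of 0.04 and 7 of 11 above 0. Adgrg3, a receptor of the same subfamily that starts 3475 bases after the end of Adgrg1, lay at 0.20 ± 0.28 (edgeR adjusted p = 0.830). Setd6, 762 bases after Ndrg4, lay at 0.24 ± 0.15 (edgeR adjusted p = 0.580).

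**Figure D4:**
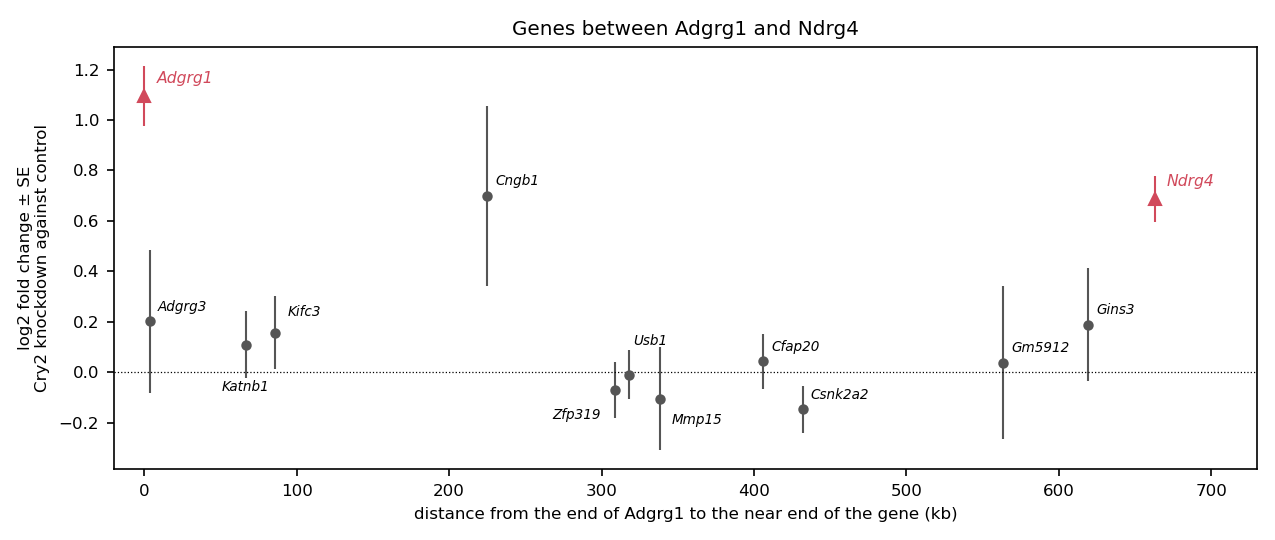
Log2 fold change of the Cry2 knockdown against the control with its SE (vertical axis, fit over 9 libraries) by distance from the end of Adgrg1 in kb for the 11 tested genes between Adgrg1 and Ndrg4 (circles) and for those 2 genes (triangles). The intervening genes lie between -0.15 and 0.70, and none passed the threshold.

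Within 50 kb of the 7 genes 16 neighbours were tested, and 0 passed in either comparison in edgeR or DESeq2 (3 and 4 at an unadjusted p under 0.05 in edgeR, against the control and the Cry1 knockdown, beside 12.2% and 25.8% of all genes). Trip4 runs the opposite way to Csnk1g1, and the annotated starts of the 2 genes lie 130 bases apart. Trip4 lay at 0.06 ± 0.10 from the control beside -0.82 for Csnk1g1. Around Sae1 all 4 tested neighbours were below 0, from -0.03 to -0.52, the lowest being Bbc3 at -0.52 ± 0.22 (edgeR adjusted p = 0.393), 2029 bases away. On the other side Zc3h4 lay at -0.25 ± 0.10 (edgeR adjusted p = 0.374). Adh7, the tested neighbour of Adh1 and also an alcohol dehydrogenase gene, lay at -0.42 ± 0.20 (edgeR adjusted p = 0.443). Trim35 next to Stmn4 was at -0.08 and Myadm next to Cacng7 at -0.16.

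Other genes with a like course over the 9 libraries were ranked by Pearson's r of log2(CPM + 1) among 13178 genes with a mean of at least 1 CPM. The libraries share genotypes and days, so r describes these 9 points only. Where a gene so ranked is like a member in its genotype differences, this follows in part from the ranking itself. For Ndrg4 the highest were Ndufs1 (r = 0.996), Narf (0.995) and Saraf (0.993), and 6.54% of all genes had r above 0.9, since many genes rise by day 3. Adh1 was followed by Scara5 (0.991), Enpep (0.981) and Igf2r (0.980), with 4.56% of genes above 0.9. Scara5, a scavenger receptor, was at 0 counts in all day 0 libraries, then at 8.89 and 55.1 CPM for control cells, 16.8 and 56.7 CPM for Cry1-knockdown cells and 2.11 and 20.7 CPM for Cry2-knockdown cells, like Adh1 lowest in the Cry2 knockdown at days 3 and 5.

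The courses of the other 5 genes were rarer, with 0.0683% (Sae1) to 0.311% (Stmn4) of genes above 0.9. Stmn4 was most like Nxn (0.972), Gltp (0.969) and Tppp3 (0.965), the last a tubulin polymerisation protein at 187, 209 and 127 CPM for Cry2-knockdown cells and 132, 135 and 62.8 CPM for control cells. Adgrg1 was most like Prmt2 (0.966), Sec11c (0.952) and Rnh1 (0.948), and Cacng7 like Zfp141 (0.955), Bcap29 (0.951) and Slc41a3 (0.946). Csnk1g1 was followed by Col4a2 (0.960), Nle1 (0.951) and Eif4ebp2 (0.943), and Sae1 by Riox2 (0.934) and Tmem94 (0.930). Col4a2, a basement membrane collagen, was at 262, 154 and 187 CPM for Cry2-knockdown cells and 320, 271 and 271 CPM for control cells.

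Among the 7 genes themselves, Csnk1g1 and Sae1 were the closest pair (r = 0.912) and Cacng7 and Csnk1g1 the most opposed (r = -0.904), pairs whose sign follows from how the genes were chosen. Adgrg1 and Ndrg4, both higher in the Cry2 knockdown, had r = 0.553, and Stmn4 and Ndrg4 r = -0.244. The genotype difference they share was thus laid over courses that part with the day.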

How the data were processed

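PolyA RNA of 9 C2C12 libraries was counted per gene. The deposited values are raw counts made by the authors; per the submitters' processing notes, CASAVA 1.8, HISAT2 2.0.2, the mm10 build and featureCounts 1.4.6 of Subread were used, and the annotation release is not given in the sources used here. Of 47728 gene IDs, 47309 matched GENCODE M21 of mm10 and 23515 had a count.

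Counts were normalised by TMM, filtered by filterByExpr (13094 genes) and fitted in edgeR 4.0.16 (R 4.3.3, limma 3.58.1) with genotype and day as terms over all 9 libraries, which leaves 4 residual degrees of freedom. Quasi-likelihood F tests used a Benjamini-Hochberg adjusted p under 0.05 over all genes tested, and SE is the absolute log2 fold change over the square root of F. The fit takes its spread from disagreement between days and genotypes, and the labels name no separate cultures, so p-values measure only the spread between these libraries, which may be technical. Library totals of 4731020 to 6412279 counts set the precision: ratios of 2 libraries carry exact 95% intervals, which, like the limit of 3 counts, cover counting error only, as reads without molecular identifiers are not independent molecules. A prior count of 1 entered the log2 ratios within days, and a pseudocount of 1 the correlations. Python 3.11.15 with pandas 2.3.3, scipy 1.17.1 and matplotlib 3.10.9 did the rest. The fit was tested on simulated data.

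The 7 genes and the lists were chosen with earlier results of these data known. Named besides them were Cry1 and Cry2, list genes past the threshold between the Cry2 knockdown and another genotype, the 3 of a list with the highest mean CPM, the 3 most correlated genes, and tested neighbours; not all that the rule allows are printed, and some are withheld for evaluation and not reported here. Promoters came from RefSeq (GRCm38.p6). Alternatives were RLE size factors, no filter, a filter of 1 CPM in 3 libraries, DESeq2 1.42.0, only the 6 libraries compared, no mitochondrially encoded genes, each library left out, and a prior count of 5. Recomputing the list counts under them was added after seeing the data.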

Additional observations from a re-analysis of the deposited data

How the results depend on the processing

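The count of genes past the threshold against the control, 11 in the main analysis, was 316 without a filter on low counts, 6 with a filter of 1 CPM in 3 libraries, 90 in DESeq2 and 5 with only the 6 libraries compared. Leaving out 1 library gave 0 to 17: 17, 1 and 0 without the Cry2 knockdown at days 0, 3 and 5, 5, 3 and 1 without the control at those days, and 6 without the Cry1 knockdown at day 3. Against the Cry1 knockdown the count of 1038 became 660 in DESeq2 and 258 to 1137 without 1 library, the lowest without the Cry1 knockdown at day 3. Day 5 against day 3 gave 3653 genes, 2382 in DESeq2 and 2045 to 3739 without 1 library, the lowest without the Cry2 knockdown at day 3. Day 3 against day 0 gave 5128 to 6723 beside 6687 over the other settings run. The causes were not tested. No log2 difference of the 7 genes that is described as higher or lower changed sign under any setting run. A prior count of 5 put the log2 ratio of Cacng7 over the control at 0.67 (day 0) and 1.60 (day 5). The main fit compares genotypes within days; no further pairing by replicate number was possible because each genotype and day has 1 library. Depth limits Cacng7 and the day 0 value of Adh1.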
